A study of Mus musculus with 20 samples.

Results

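The Slco genes encode organic anion transporting polypeptides, membrane proteins that take bile acids, steroid conjugates, bilirubin, thyroid hormones, prostaglandins and many drugs into cells. In hepatocytes they sit mainly in the membrane that faces the blood, where they work beside the sodium-dependent bile acid carrier. Mouse liver is known for its own pattern of Slco1 genes, among them Slco1a1, which is higher in males than in females and responds to the pattern of growth hormone secretion.

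Transcripts of 6 genes of this family, Slco1a1, Slco1a4, Slco1b2, Slco2a1, Slco2b1 and Slco3a1, were followed in liver RNA sequencing libraries of 20 mice. They were found by symbol among 55487 gene identifiers, of which 15 had an Slco symbol. The set was chosen because Slco1a1 had shown a large fall on the high-fat diet (HFD) in these same libraries. Levels in chow-fed and HFD-fed mice are therefore given as a description without a test, and only tests between HFD groups are read for the members.

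All mice were female C57BL/6J animals, 28 weeks old, with 1 library of whole liver per mouse. The 5 mice of the chow group stayed on chow, and the others ate HFD for 10 weeks and then, for a further 10 weeks, HFD in which fishmeal (5 mice), salmon filet (6 mice) or beef (4 mice) supplied part of the protein. Diet-induced obesity is the model, no gene was altered, and diet was the treatment compared. The paper also reports vitamin drops in the drinking water, a glucose injection for a tolerance test, and isoflurane sedation before tissues were taken. Whole liver mixes hepatocytes with endothelial, immune, bile duct and stellate cells. Mouse 31 carries the salmon filet label, but its heading in the count table names beef. Only the headings give groups of even size, which is the design that the study describes. Results that use it are given as labelled and, where the grouping matters, also by the heading.

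The libraries held 42526234 to 70266136 reads counted on genes. The share of counts on protein coding genes was 93.2% to 95.6% in 19 libraries and 84.3% in that of mouse 35, fed beef, which stood apart. Across libraries, 10 hepatocyte markers summed to 99737 to 137646 TPM, and were thus high in every library. TPM is the share of a transcript in a library after its reads are divided by gene length, and it is the unit of every level compared between genes.

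The stretches of 250 bases before the RefSeq start sites of Slco1a1, Slco1a4 and Slco1b2 are shown because these neighbours on chromosome 6 include the most abundant member, the member with the widest spread between mice and the one with the smallest difference between chow and HFD. The sequences are from RefSeq on GRCm38.p6, where 5 of the 6 members had an entry, and each reads 5′ to 3′ along its gene's own strand. Capitals mark matches, on either strand, to AGGTCA (a nuclear receptor site unit, found in 14% of 32851 mouse promoters cut in the same way), GTTAAT (an HNF1 site unit, 6.43%) or TTCNNNGAA (the core of a STAT site, 7.02%). A search for the E-box CACGTG (6.02%) found none in these stretches.
Slco1a1 (chr6:141946963-141947212, minus strand): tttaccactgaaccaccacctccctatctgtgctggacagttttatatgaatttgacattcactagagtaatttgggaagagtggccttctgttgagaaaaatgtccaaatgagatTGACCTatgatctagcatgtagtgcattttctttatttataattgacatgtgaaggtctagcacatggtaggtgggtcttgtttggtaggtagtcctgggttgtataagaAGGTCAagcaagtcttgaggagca
Slco1a4 (chr6:141856221-141856470, minus strand): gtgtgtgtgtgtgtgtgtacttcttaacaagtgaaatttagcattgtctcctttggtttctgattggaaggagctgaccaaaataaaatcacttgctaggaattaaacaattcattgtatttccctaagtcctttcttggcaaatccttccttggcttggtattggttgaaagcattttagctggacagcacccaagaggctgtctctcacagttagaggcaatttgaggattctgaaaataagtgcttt
Slco1b2 (chr6:141629268-141629517, plus strand): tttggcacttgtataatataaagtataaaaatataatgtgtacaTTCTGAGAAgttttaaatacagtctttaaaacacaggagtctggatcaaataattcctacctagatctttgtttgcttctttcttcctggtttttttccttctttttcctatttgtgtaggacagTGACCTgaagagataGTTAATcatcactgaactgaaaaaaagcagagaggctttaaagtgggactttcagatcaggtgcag
The Slco1a1 stretch held AGGTCA at 134 and 24 bases before the start, and that of Slco1a4 held none of the 4 motifs. The Slco1b2 stretch held TTCNNNGAA at 206, AGGTCA at 81 and GTTAAT at 66 bases before the start, with no overlap between them. Aligned without gaps, the Slco1a1 and Slco1a4 stretches shared 59 of 250 bases (23.6%). Such matches are descriptions of letters and name no bound factor.

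Slco1a1 (ENSMUSG00000041698), which encodes a transporter of bile acids and steroid conjugates, lies on chromosome 6 from 141907282 to 141946962 on the minus strand of GRCm38. In chow-fed liver its TPM was 52.1 in mouse 1, 41.1 in mouse 2, 33.3 in mouse 5, 7.58 in mouse 7 and 9.61 in mouse 10. The chow group thus held 3 mice above 33 TPM and 2 mice below 10 TPM, a range of 6.87-fold.

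In mice fed fishmeal, Slco1a1 was at 0.661, 0.803, 3.48, 0.595 and 0.474 TPM in mice 12, 13, 14, 16 and 20. The 6 mice labelled salmon filet ran from 0.0885 TPM in mouse 25 through a median of 0.350 to 3.80 TPM in mouse 23. Beef-fed mice 32, 35, 39 and 40 had 0.253, 12.4, 0.236 and 2.17 TPM. In each HFD group, mice below 1 TPM stood beside 1 or 2 mice above 2 TPM. Of the 15 HFD-fed mice, 14 were below the lowest chow-fed mouse. The exception was mouse 35, whose 12.4 TPM was above those of chow-fed mice 7 and 10, and which also had the low share of protein coding counts. What that share had to do with its Slco1a1 level was not tested.

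The mean Slco1a1 level was 28.8 ± 19.6 TPM on chow (SD, n = 5) and 1.92 ± 3.17 TPM on HFD (SD, n = 15). The ratio of these means was 14.96, or 24.5 without mouse 35, and the ratio of the medians was 56.0. On the scale of the fitted counts, the log2 fold change from chow to HFD was -3.78 (SE 0.746), and it was -4.57 without mouse 35. The log2 fold change from the same chow mice was -4.55 (SE 0.696) for fishmeal, -4.43 (SE 0.874) for salmon filet and -2.72 (SE 1.08) for beef. The beef value was -4.93 without mouse 35. With mouse 31 counted as beef, the log2 fold changes were -4.24 (SE 0.934) for salmon filet and -3.01 (SE 1.06) for beef. The 3 diets share their chow controls, so these values are not independent of each other.

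**Figure D1:**
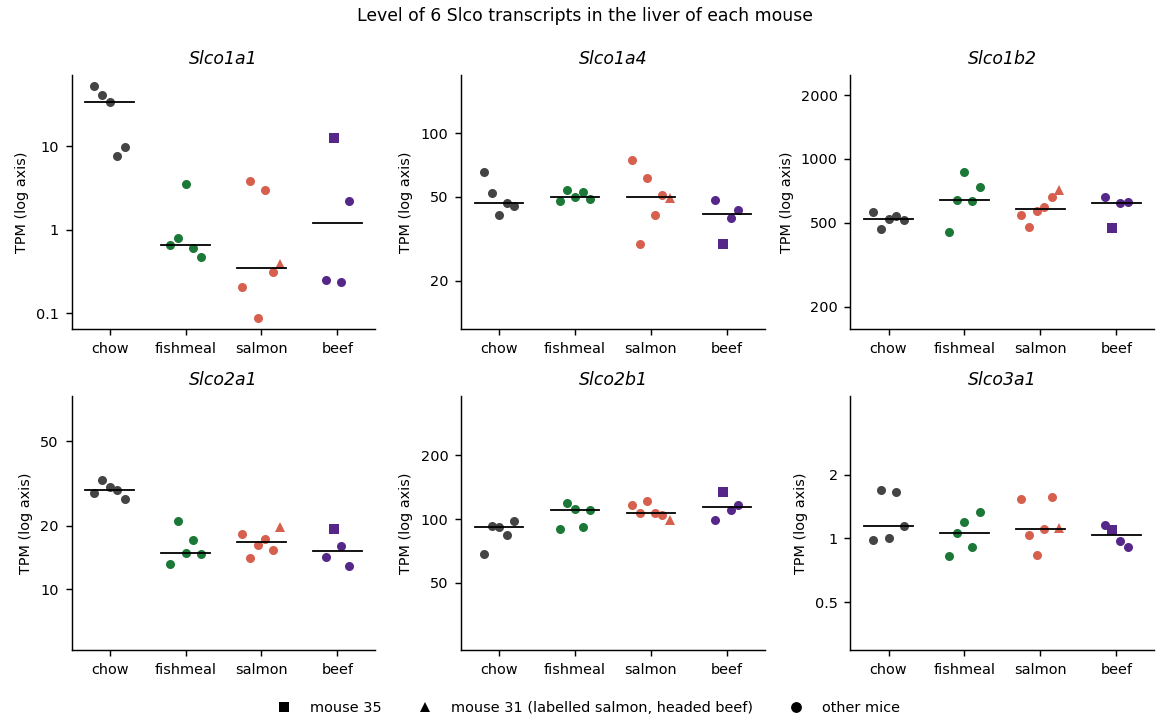
TPM of 6 Slco transcripts in each of 20 mice by diet group, on log axes that differ between panels; lines are group medians, the square is mouse 35 and the triangle is mouse 31. Slco1a1 runs from 52.1 TPM on chow to 0.0885 TPM on HFD. Slco2a1 sits lower in every HFD-fed mouse, and the other panels overlap between chow and HFD. The share of all genes without such overlap was not counted, so nothing is read from the separation.

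Low Slco1a1 levels rested on few reads. The lowest library, that of mouse 25, had 10 reads on the gene (exact 95% Poisson interval 4.80 to 18.4), while that of mouse 1 had 7277. The interval covers counting error only. Intervals of the lowest mice overlapped, for instance with 4.80 to 18.4 reads in mouse 25 and 13.0 to 32.1 in mouse 39, so their order is not resolved. Within the 4 diet groups the SD of log2 CPM (counts scaled to library size, adjusted by TMM factors, and not to gene length) of Slco1a1 was 1.90, which ranked it 6 of 11568 genes, against a median SD of 0.219. Its 5 relatives had SDs of 0.178 to 0.289 on this scale. Inside single groups the SD was 1.29 in chow, 1.11 in fishmeal, 2.11 in salmon filet and 2.81 in beef, the group of mouse 35. With mouse 31 counted as beef it was 2.34 in salmon filet and 2.54 in beef. Over all HFD-fed mice together it was 1.97.

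Slco1b2 (ENSMUSG00000030236; chromosome 6, 141629518 to 141686646, plus strand) encodes a hepatocyte uptake carrier for bilirubin, bile acids and drugs, and was the most abundant member. Its level on chow was 562, 467, 518, 536 and 515 TPM in mice 1, 2, 5, 7 and 10. HFD-fed mice ran from 451 through a median of 626 to 869 TPM, and 11 of 15 were above the highest chow-fed mouse. The log2 fold change was 0.29 (SE 0.104) for all HFD, and 0.40, 0.20 and 0.28 for fishmeal, salmon filet and beef. The groups overlapped in both units. In TPM mouse 12 on fishmeal was below every chow-fed mouse, whereas in CPM no HFD-fed mouse was below the lowest chow-fed one.

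Slco1a4 (ENSMUSG00000030237; chromosome 6, 141805440 to 141856199, minus strand), the next gene to Slco1a1, encodes a carrier of bile acids and cardiac glycosides that is known to be induced through the xenobiotic receptor PXR. On chow it was at 65.6, 52.0, 41.1, 46.7 and 45.1 TPM in mice 1, 2, 5, 7 and 10, and on HFD at 30.0 to 74.7 TPM with a median of 48.9. The HFD range enclosed the chow range, and the log2 fold change was -0.02 (SE 0.143). Slco1a1 and Slco1a4 lie side by side on chromosome 6 and on the same strand, yet their values on HFD thus went apart.

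Slco2a1 (ENSMUSG00000032548; chromosome 9, 102988712 to 103096002, plus strand) encodes the prostaglandin transporter, which clears prostaglandins from outside the cell. Chow-fed mice 1, 2, 5, 7 and 10 had 28.5, 32.8, 30.5, 29.5 and 26.6 TPM, and HFD-fed mice 12.9 to 21.0 TPM with a median of 16.1. Its chow and HFD ranges did not overlap, unlike those of the other members. The share of all genes without such overlap was not counted, so nothing is read from this. Its log2 fold change was -0.81 (SE 0.0953) for all HFD, with -0.83 for fishmeal, -0.80 for salmon filet and -0.81 for beef. Unlike Slco1a1, it differed little between mice of 1 diet, with a coefficient of variation of 7.78% on chow and 15.1% on HFD.

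Slco2b1 (ENSMUSG00000030737; chromosome 7, 99657804 to 99711340, minus strand) encodes a carrier of steroid sulfates and drugs found in many tissues. Its level was 68.6, 92.6, 92.1, 84.2 and 97.4 TPM in chow-fed mice 1, 2, 5, 7 and 10, and 89.3 to 133.7 TPM on HFD with a median of 109.7. On HFD, 13 of 15 mice were above the highest chow-fed mouse, and the log2 fold change was 0.38 (SE 0.101). By diet it was 0.31 for fishmeal, 0.35 for salmon filet and 0.51 for beef. The highest of all was mouse 35, which carried the largest Slco1a1 level on HFD too.

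Slco3a1 (ENSMUSG00000025790; chromosome 7, 74275419 to 74554780, minus strand) encodes a widely expressed carrier of prostaglandins and thyroid hormone, and its liver level was low. Chow-fed mice 1, 2, 5, 7 and 10 had 0.981, 1.696, 1.002, 1.661 and 1.141 TPM, and HFD-fed mice 0.823 to 1.58 TPM. The ranges overlapped widely, with a log2 fold change of -0.16 (SE 0.131).

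**Figure D2:**
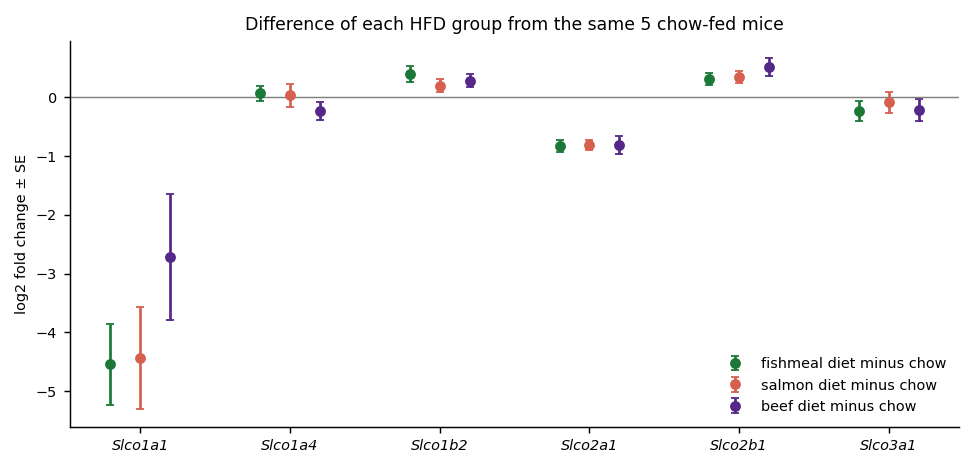
Log2 fold change from chow, from the fitted counts, with standard errors, for each member in each HFD group against the same 5 chow-fed mice. Slco1a1 lies at -2.72 to -4.55 in the 3 diets, Slco2a1 at -0.80 to -0.83, and Slco2b1 and Slco1b2 above 0 in each.

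All 6 members passed the filter on low counts. In edgeR's test 3 of them passed an adjusted p of 0.05 for HFD against chow, where 9.75% of all 17120 genes did (4.54% higher and 5.21% lower on HFD). Since Slco1a1 was picked on this contrast, nothing is read from the count. In bulk liver, fewer cells of a type and less RNA per cell cannot be told apart for any of these genes.

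The order of members by TPM was steady at the top. In all 20 mice Slco1b2 was above Slco2b1, and Slco2b1 above Slco1a4. Slco1a1 was above Slco2a1 in 3 of 5 chow-fed mice and in 0 of 15 HFD-fed mice. In 10 of the 15 HFD-fed mice it was also below Slco3a1, in the last place. Neighbours in this order were not all far apart, since in 1 chow-fed mouse Slco2b1 was only 1.04 times Slco1a4.

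Slco1a1 had little weight in the summed TPM of the 6 transcripts. Slco1b2 made up 72.5% ± 2.97 of that sum on chow (SD, n = 5) and 77.4% ± 3.46 on HFD (SD, n = 15). The share of Slco1a1 was 3.96% ± 2.60 on chow and 0.264% ± 0.471 on HFD. The sum itself was 716 ± 35.9 TPM on chow and 794 ± 111 TPM on HFD.

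The other 9 Slco genes were near or at 0 in liver, with a summed TPM of 0.1002 to 0.3189 in any mouse. Slco4a1, which encodes a thyroid hormone carrier, alone had enough counts for a test, and its log2 fold change of 0.45 did not pass (edgeR, adjusted p = 0.34). The next Slco genes to the 3 members on chromosome 6, Slco1c1 and Slco1a6, had at most 3 and 5 counts in any library. Slco1a5 also stayed at 3 counts or fewer. Its transcript matches that of Slco1a1 at 90.3% over 576 bases and that of Slco1a4 at 90.2% over 1321 bases, so reads that fit both could have been placed on either gene.

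Between the HFD groups no member passed the test. For Slco1a1 the log2 difference of fishmeal from salmon filet was -0.11 (95% interval -1.94 to 1.72), of fishmeal from beef -1.85 (-4.08 to 0.38) and of salmon filet from beef -1.73 (-4.21 to 0.75). The first interval holds large differences in either direction, and the others hold large ones in the direction of more Slco1a1 on beef. Without mouse 35, the difference of fishmeal from beef changed from -1.85 to 0.39 and that of salmon filet from beef to 0.49, so the direction of both rested on that mouse.

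The other members were measured more tightly. For Slco2a1 the log2 difference was -0.01 (95% interval -0.24 to 0.22) between fishmeal and salmon filet, -0.02 (-0.39 to 0.35) between fishmeal and beef, and -0.00313 (-0.31 to 0.31) between salmon filet and beef. For Slco1b2 it was 0.21 (-0.07 to 0.49), 0.11 (-0.20 to 0.42) and -0.09 (-0.35 to 0.16) in the same order. For Slco2b1 it was -0.02 (-0.22 to 0.17), -0.21 (-0.52 to 0.11) and -0.17 (-0.46 to 0.12). Of these 9 intervals, 8 lay within 0.5 of 0 on the log2 scale, a count that leaves out Slco3a1 and Slco1a4. For Slco3a1 the log2 difference was -0.13 (-0.46 to 0.21), -0.02 (-0.38 to 0.33) and 0.12 (-0.26 to 0.49) in the same order. For Slco1a4 it was 0.05 (-0.31 to 0.42) between fishmeal and salmon filet, and 0.26 (-0.17 to 0.68) between salmon filet and beef. For Slco1a4 the log2 difference of fishmeal from beef was 0.30 (0.02 to 0.57) at an unadjusted p of 0.0354, and edgeR's adjusted p was 1.00. With mouse 31 counted as beef this log2 difference was 0.26 (0.01 to 0.51), again without passing.

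In these 3 comparisons the members' lowest adjusted p was 0.999 as labelled and 0.920 with mouse 31 counted as beef. The share of all genes that passed was 0.157% for fishmeal against salmon filet, 0.00607% for fishmeal against beef and 0% for salmon filet against beef. For the last pair edgeR called 0 of 16509 genes, 613 had an unadjusted p under 0.05, and DESeq2 called 1. In the joint test over the 3 HFD groups, which called 0.106% of genes, no member passed, and Slco1a1 had the lowest unadjusted p among them, 0.177.

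**Figure D3:**
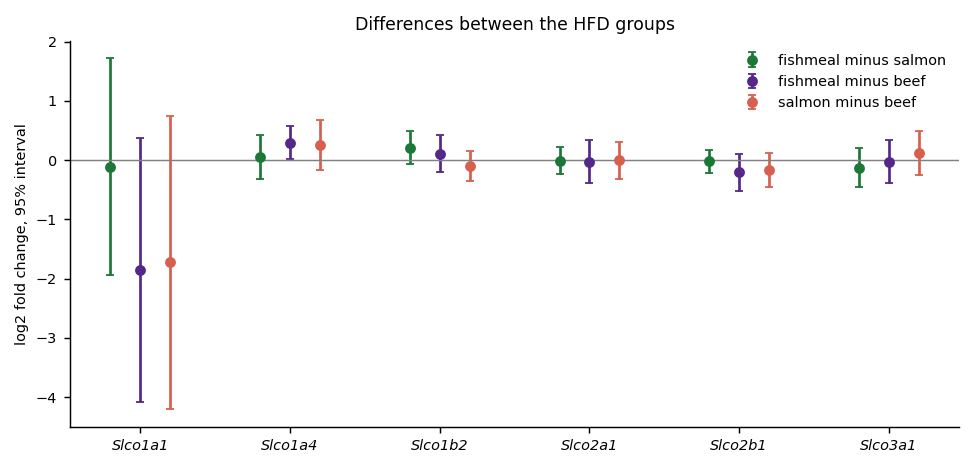
Log2 difference between each pair of HFD groups for the 6 members, with 95% intervals from edgeR. Slco1a1 has intervals as wide as -4.21 to 0.75, and the only interval that leaves out 0 is that of Slco1a4 for fishmeal against beef, 0.02 to 0.57, whose adjusted p did not pass.

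The spread of Slco1a1 between mice was shared by other liver genes. Likeness was measured as Pearson's r of log2 CPM over 20 mice after each gene was centred on its mean in chow-fed and in HFD-fed mice, so the shift from chow to HFD does not enter it. Among 11506 protein coding genes, those most like Slco1a1 were C8a, a complement subunit (r = 0.78), Serpina1e, a protease inhibitor of the alpha-1-antitrypsin family (r = 0.78), Sult3a1, an amine sulfotransferase (r = 0.75), and Cyp2c54, a cytochrome P450 (r = 0.75). The genes most opposite to it were 4 hydroxysteroid sulfotransferases of 1 family, Sult2a5 (r = -0.87), Sult2a2 (r = -0.85), Sult2a1 (r = -0.82) and Sult2a3 (r = -0.81). Of all 11567 genes whose mean CPM was 1 or more, 0.156% reached an r beyond 0.7 in either direction. These values describe 20 livers that share library preparation and the depths given above, and mice were not sampled for this relation.

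The HFD-fed mice were unevenly spread in Slco1a1 level, and were divided for description at a gap seen in the values, without a test. In mice 14, 23, 26, 35 and 40, from all 3 diets, Slco1a1 was at 2.17 to 12.4 TPM, and in the other 10 it was at 0.0885 to 0.803 TPM. A wider gap, from 3.80 to 12.4 TPM, set mouse 35 apart from the rest. Sult2a2 was at 323, 283, 363, 163 and 174 TPM in these 5 mice, in that order, and between 686 and 1116 TPM in each of the other 10. No HFD-fed mouse was high or low in both. Sult2a2 had been picked for its low r with Slco1a1 over these same mice, so this separation is no separate evidence. Within the 10 mice below 1 TPM of Slco1a1, r was -0.12 to -0.44 for the 4 Sult2a genes, 0.31 for Serpina1e, 0.41 for Sult3a1, 0.53 for C8a and 0.85 for Cyp2c54. Apart from that of Cyp2c54, these values were nearer 0 than those over 20 mice. Without mice 35 and 25, the farthest from the median of Slco1a1, r over 18 mice was 0.67 to 0.77 for the 4 most like genes and -0.81 to -0.82 for the Sult2a genes.

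On chow, Sult2a2 was at 164, 299, 557, 722 and 595 TPM in mice 1, 2, 5, 7 and 10. This order is the reverse of that of Slco1a1, from mouse 1 with the highest Slco1a1 level to mouse 7 with the lowest. The chow-fed mice were also among those on which Sult2a2 was picked, so nothing further is read from the order. In the HFD-fed mouse with the least Slco1a1, mouse 25, Sult2a2 was at 1103 TPM. The Sult2a transcripts are 93.1% to 98.5% identical to each other over the stretches that align, and those of Serpina1e and its Serpina1 relatives 96.2% to 96.5%, so counts within each family are uncertain as to the single gene.

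**Figure D4:**
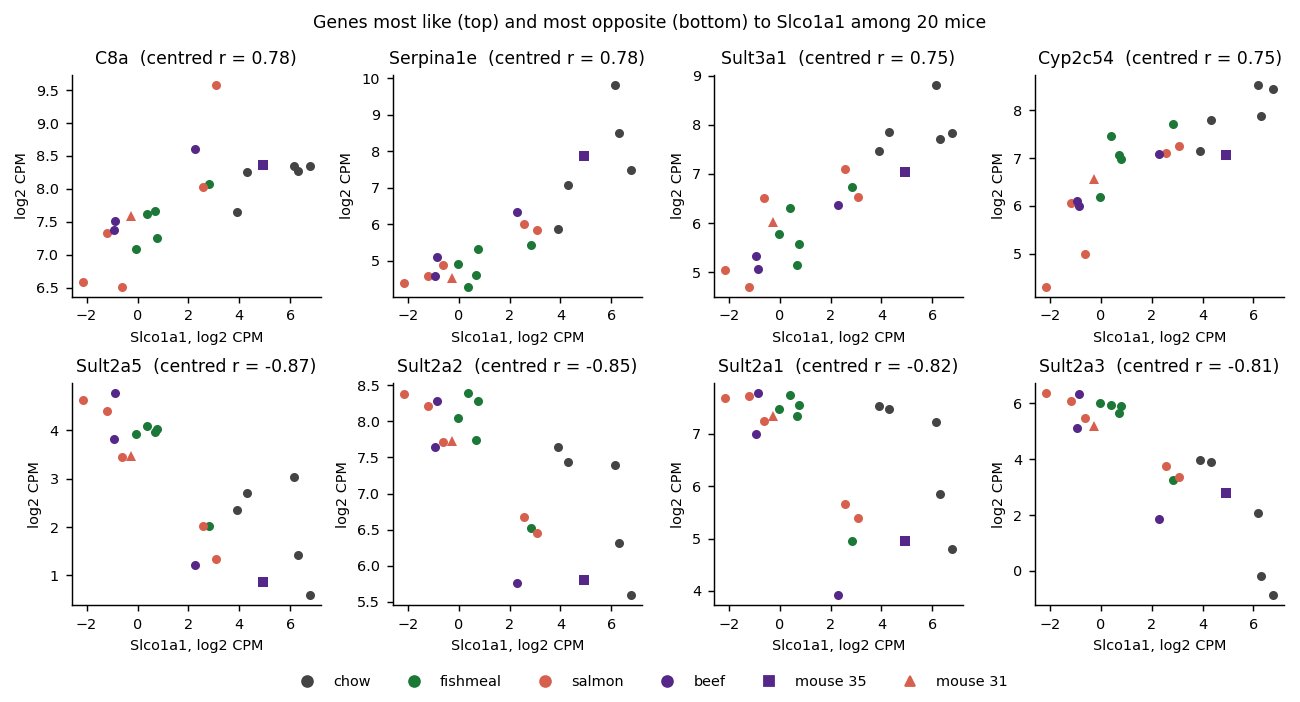
Log2 CPM of the 4 genes most like (top) and the 4 most opposite (bottom) to Slco1a1 against log2 CPM of Slco1a1 in 20 mice, coloured by diet. The HFD-fed mice at 2.17 TPM of Slco1a1 or more number 5 and lie below the other 10 for each Sult2a gene. The genes shown were picked for their r over these same mice.

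Relatives of Slco1a1 had other partners. The 2 most like genes were Phldb2 (r = 0.93) and Fam126b (r = 0.90) for Slco1b2, Sptssa (r = 0.81) and Cyp3a59 (r = 0.78) for Slco1a4, Shank2 (r = 0.85) and Nacc2 (r = 0.83) for Slco2a1, Furin (r = 0.93) and Prkcsh (r = 0.93) for Slco2b1, and Flna (r = 0.89) and Slc7a1 (r = 0.83) for Slco3a1. These partners were picked for the highest r over these same mice. Without the 2 mice farthest from each member's median, r ran from 0.66 (Nacc2) to 0.92 (Phldb2), with 0.74 for Shank2 and 0.85 for Furin. Mouse 35 was among those left out for Slco2a1 and Slco2b1. Slco1a1 itself had an r of -0.49 with Slco1a4 (-0.28 without the 2 farthest mice), 0.36 with Slco2b1 and -0.02 with Slco1b2. The members thus did not vary as 1 set over these 20 mice. The centred level of Slco1a1 had an r of -0.62 with the share of protein coding counts, or -0.40 without mouse 35. For Slco2a1 and Slco2b1 this r went from -0.59 to -0.05 and from -0.63 to 0.00492 when mouse 35 was left out.

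Because Slco1a1 differs between the sexes in mouse liver, lists of genes with such a bias were read beside it. Of 12 male-biased genes tested, 0 rose and 6 fell on HFD (edgeR, adjusted p under 0.05), with a median log2 fold change of -0.56 against 0.00499 for all genes, while 5 fell without mouse 35 and 3 without chow-fed mouse 1. Serpina1e fell by 2.72 (adjusted p = 0.00124), the 3-beta-hydroxysteroid dehydrogenase Hsd3b5 by 2.29 (adjusted p = 0.0034) and the selenium binding protein Selenbp2 by 1.66 (adjusted p = 0.000181) on the log2 scale. Hsd3b5 was at 0.714 CPM on chow and did not pass without chow-fed mouse 1 (adjusted p = 0.0855). The steroid hydroxylases Cyp7b1 (-0.33) and Cyp2d9 (0.09) did not pass. Of 22 female-biased genes, 4 rose and 4 fell, with a median of -0.10. Among them the neurotrophin receptor Ntrk2 rose by 2.11 (adjusted p = 0.00754) and the hydroxyacid oxidase Hao2 by 1.56 (adjusted p = 0.0012), while Sult3a1 fell by 1.88 (adjusted p = 0.000392).

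After centring on chow-fed and on all HFD-fed mice, all 11 male-biased genes whose mean CPM was 1 or more had an r above 0 with Slco1a1, with a median of 0.14, and 19 of 22 female-biased genes had an r below 0, with a median of -0.26. Over all 11567 genes 50.1% had an r above 0. Most single values were small. In the female-biased list Sult2a2 (r = -0.85), Sult2a1 (r = -0.82) and Hao2 (r = -0.74) were lowest, and Sult3a1 (r = 0.75) went against the list. Sult2a1, Sult2a2, Sult3a1 and the male-biased Serpina1e were also picked above as most like or most opposite. The list counts are therefore not separate from that choice. Of 14 genes of growth hormone signalling, 1 passed: Socs2, a feedback inhibitor of the hormone's receptor, fell by 1.53 (adjusted p = 4.03e-06). The receptor Ghr (0.30), its mediator Stat5b (0.08), the repressor Bcl6 (-0.66) and the female-specific factor Cux2 (-0.02) did not pass.

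**Figure D5:**
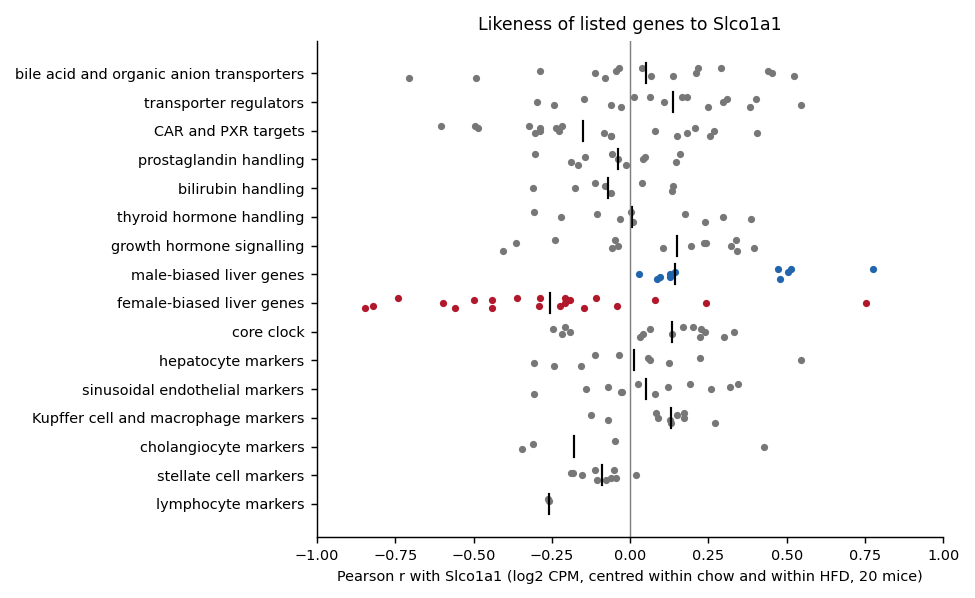
Centred Pearson's r with Slco1a1 over 20 mice for each gene of the lists, 1 point per gene, with the list median. The 11 male-biased genes lie above 0 and 19 of 22 female-biased genes below 0, against 50.1% above 0 among all genes.

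Other transporters of bile acids and organic anions did not follow Slco1a1. Of 16 tested, 5 rose and 1 fell on HFD, with a median log2 fold change of 0.29. The sterol exporters Abcg8 (1.02, adjusted p = 0.00187) and Abcg5 (0.85, adjusted p = 0.00149) rose, and the basolateral efflux pump Abcc4 fell by 0.92 (adjusted p = 0.00255). The organic anion carrier Slc22a7 rose by 1.06 (adjusted p = 0.0307), and without chow-fed mouse 1, 2 or 7 its log2 fold change was 0.928, 1.117 or 0.922 but did not pass (adjusted p = 0.110, 0.0587 and 0.109). With 1 mouse left out, 2 (without chow-fed mouse 2 or 7) to 6 of these transporters rose and 1 to 2 fell. The main sodium-dependent bile acid carrier Slc10a1 (-0.07), the bile salt export pump Abcb11 (-0.39, adjusted p = 0.0502) and the efflux pump Abcc3 (-0.03) did not pass. Abcc4 was also opposed to Slco1a1 between mice, with r = -0.71.

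Of 16 regulators of such transporters, 3 rose and 1 fell, with a median of 0.18, and 1 rose without chow-fed mouse 1, 2 or 7. Among those lost were the fatty acid receptor Ppara (0.85, adjusted p = 0.0288, and 0.104, 0.0817 and 0.108 without these mice) and the liver factor Cebpa (0.48, adjusted p = 0.0297, and 0.0580, 0.0875 and 0.103). The aryl hydrocarbon receptor Ahr fell by 0.45 (adjusted p = 9.85e-05) and the bile acid synthesis regulator Nr5a2 rose by 0.33 (adjusted p = 0.00406). The xenobiotic receptors Nr1i2 (PXR, -0.13) and Nr1i3 (CAR, 0.26) did not pass, whereas 10 of 22 targets of CAR and PXR fell and 2 rose, with a median of -0.48. Cyp2b10, the classic CAR target, fell by 4.14 (adjusted p = 2.57e-07), the largest fall of the list, while Slco1a4, itself known as a PXR target, was at -0.02. The 2 that rose were Cyp2b13 (0.99, edgeR, adjusted p = 0.00058) and Cyp2b9 (0.42, adjusted p = 0.0104), which are also counted in the female-biased list.

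Handling of the transported compounds was read from 3 lists. Of 17 prostaglandin genes 1 fell, Ptgr1, a prostaglandin reductase (-0.77, adjusted p = 0.00474), and the prostaglandin dehydrogenase Hpgd (0.28, adjusted p = 0.173) did not pass beside the lower Slco2a1. Of 8 genes of bilirubin handling none passed. Of 11 thyroid hormone genes 3 rose (2 without chow-fed mouse 1, 2 or 5) and 1 fell, and the deiodinase Dio1 was among those that rose (1.21, adjusted p = 0.00134).

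Marker genes of other liver cells were read beside Slco2a1, which endothelial cells also express. Of 12 sinusoidal endothelial markers 3 fell (2 without chow-fed mouse 1, 4 without beef-fed mouse 32 or 35), with a median of -0.25, and their summed TPM was 215 to 265 on chow and 146 to 233 on HFD. Dnase1l3 had the greatest fall among them, 0.38 (adjusted p = 0.00636), against -0.81 for Slco2a1. Of 12 lymphocyte markers 8 fell (4 without chow-fed mouse 1 or 2), with summed TPM of 9.98 to 21.2 on chow and 4.47 to 12.0 on HFD. For 10 hepatocyte, 10 macrophage and 10 stellate cell markers none passed, and 1 of 8 cholangiocyte markers fell, Sox9 (-0.61, adjusted p = 0.0301). Without mouse 35, 1 macrophage marker fell, and Sox9 did not pass without chow-fed mouse 1, 2 or 7 (adjusted p = 0.0581, 0.138 and 0.0736). Clock genes differed between chow and HFD as well. Of 16, 9 were higher on HFD (5 without chow-fed mouse 7) and 2 were lower. The number lower was 0 when chow-fed mouse 1, 2 or 7, fishmeal-fed mouse 20 or beef-fed mouse 39 was left out. Dbp was higher by 4.70 on the log2 scale (edgeR, adjusted p = 0.00423). The hour at which each liver was taken is not given in the sources used here. Its part in these differences was not tested. The centred r of Slco1a1 with the 15 clock genes whose mean CPM was 1 or more was between -0.25 and 0.33. What these shifts had to do with the levels of the 6 Slco transcripts was not tested.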

How the data were processed

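Liver RNA of 20 mice was sequenced. The authors mapped the reads and counted them per gene, with HISAT2 1.2.1 and featureCounts 1.4.6-p1 in the submitters' processing notes, and deposited raw counts and, in a second table, TPM. The strand setting of the counting is not given in the sources used here. The paper prints a human build name, and positions here are from GENCODE M21 on GRCm38. TPM equalled the share of counts over gene length for 100% of 10432 genes checked. A chi-square of counts found no duplicate library, at a mean per gene of 35.1 to 457 over the 41 pairs from the same diet.

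Groups followed the sample labels (5, 5, 6 and 4 mice), while the paper describes 5 individuals per diet, and mice share no pairing. The members and lists were chosen with earlier results of these data known. Deposited counts were tested with edgeR 4.0 (R 4.3, TMM, filterByExpr with a minimum count of 10, quasi-likelihood F-test, Benjamini-Hochberg over all genes tested, threshold 0.05). CPM used TMM factors over all libraries and a prior count of 2 on the log2 scale. Alternatives were DESeq2 1.42, limma 3.58 on log2(TPM + 1) or log2(TPM + 0.1) at a mean TPM of at least 0.5 or for every gene, other size factors, all genes with at least 1 count, a fit on all 4 groups, mouse 31 by its heading or left out, and each mouse left out. Beside the members, the text could name up to 4 called genes a list with the largest change, some transporters, receptors and hormone pathway genes named in advance, and genes most like a member. Some genes so chosen are not reported here. Similar transcripts were sought with blastn 2.17. The scripts were tested on simulated data.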

Additional observations from a re-analysis of the deposited data

Results flagged for a closer look

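In 24 tests, 1 for each member in each diet group, a gap between the most extreme mouse and the next was set against Dixon's 95% critical value, and 2 exceeded it. Chance gives about 1 in 20 where values have a normal spread. The gaps were taken on TPM without a log, and Slco1a1 had a coefficient of variation of 165% over the HFD-fed mice. Gaps on a log scale were not tested. Both flagged values were the highest Slco1a1 level of a HFD group. On fishmeal, mouse 14 had 3.48 TPM and the next mouse 0.803 TPM, a gap of 0.891 of the range where the limit is 0.71. On beef, mouse 35 had 12.4 TPM and the next mouse 2.17 TPM, a gap of 0.841 of the range, just past the limit for 4 mice. In mouse 35 the share of protein coding counts was 84.3%, and its part in the Slco1a1 level was not tested. Sult2a2, which was picked for running opposite to Slco1a1 over these same mice, was at 323 TPM in mouse 14 and at 163 TPM in mouse 35.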

How the results depend on the processing

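The log2 fold change of Slco1a1 on HFD kept its direction in every setting, at -4.57 (without beef-fed mouse 35) to -3.42 (without chow-fed mouse 1) when 1 mouse was left out and at -4.55 to -3.45 otherwise. Members that passed for HFD against chow numbered 3, 4 with DESeq2 and 2 to 3 with 1 mouse left out, and 0 in every setting between HFD groups. The set was chosen on HFD against chow for the fall of Slco1a1. Nothing is therefore read from its steady direction or from the member counts of that contrast. Genes called for HFD against chow numbered 1669, 2185 with DESeq2, 1041 with limma on every gene, and 986 (without chow-fed mouse 1) to 1939 (without fishmeal-fed mouse 12). For fishmeal against salmon filet there were 26, with 42 on all genes with at least 1 count, 82 with DESeq2, 17 with limma on every gene, and 18 to 41 with 1 mouse left out. For fishmeal against beef there was 1, with 10 on all genes with at least 1 count, 29 with DESeq2, 0 in all 3 limma settings, 4 in the fit on all groups, 4 with mouse 31 as beef, and 0 to 4 with 1 mouse left out. For salmon filet against beef there were 0, 1 with DESeq2, and 0 with any mouse left out. For the 3 HFD groups together there were 18, with 29 on all genes with at least 1 count, 63 with DESeq2, 10 with limma on every gene, and 7 to 28 with 1 mouse left out. The cause of these shifts was not tested. The wide spread of Slco1a1 within diets left wide intervals for its differences between them. The lowest library held 10 reads of Slco1a1. No paired analysis was possible because mouse numbers do not link mice between groups.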
